A study of Mus musculus with 9 samples.

Results

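miR-22-3p was one of the 3 most abundant miRNAs in every one of the 9 mouse serum libraries, and its share of the miRNA counts stayed close to 11% in the mean of each group. It is the miRNA that the deposited files list as MIMAT0000531, 1 of 876 mature miRNAs with a count in at least 1 library. The files hold these accession numbers without names. This miRNA was chosen on its own counts in all 9 libraries, that is, on its abundance, its rank and its evenness across groups. Its levels, ranks and spreads are therefore given as a description and carry no test.

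Serum came from healthy 129/SVj mice of both sexes, aged 2 to 9 months, and blood was taken under tribromoethanol by cardiac puncture. The labels name 3 serum pools (A, B and C), while the protocol text describes aliquots of 200 μl from serum pooled from 3 mice, so p-values measure only the spread between these samples, which may be technical. RNA of each pool was split over 3 fractions, which gave 3 groups of 3 libraries. The control fraction was left undepleted, the beads fraction was mixed with biotinylated DNA probes against abundant 5′ tRNA fragments and cleared with magnetic streptavidin beads, and the RNase H fraction received the same kind of probes followed by RNase H, which cuts RNA paired to DNA, and then DNase I. The comparisons address whether a depletion protocol keeps the relative level of an individual miRNA.

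A miRNA is cut from a hairpin precursor by Drosha and Dicer and loaded into an Argonaute protein, where bases 2 to 8, the seed, pair with messenger RNAs and lower their output. In serum, miRNAs are carried in protein complexes and vesicles and come from many tissues, so fewer source cells and less RNA per cell cannot be told apart. miR-22-3p is made in most tissues and has been studied in heart muscle growth, blood cell formation and tumour suppression.

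The mature sequences below are shown because they decide where in the genome a read of miR-22-3p can map, and because miR-16-5p is the miRNA with which it is compared throughout. The authors mapped reads without mismatches and named them by genomic location. Capitals mark the seed.
miR-22-3p: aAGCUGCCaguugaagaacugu
miR-22-5p: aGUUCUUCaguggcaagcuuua
miR-16-5p: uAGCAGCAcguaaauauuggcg
In the RefSeq hairpin that follows, capitals mark miR-22-3p instead, which lies on its 3′ arm.
Mir22 hairpin: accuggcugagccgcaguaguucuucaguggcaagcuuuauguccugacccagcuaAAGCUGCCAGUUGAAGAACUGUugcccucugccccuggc

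miR-22-3p has a single source in the RefSeq table (GRCm38.p6). The hairpin Mir22 lies on the plus strand of chromosome 11 from 75463716 to 75463810, and miR-22-3p occupies 75463772 to 75463793 of it. GENCODE M21 places the whole hairpin within exon 2 of both annotated transcripts of the non-coding host gene Mir22hg, which runs from 75461539 to 75466676. The nearest other hairpin of the table, Mir3971, is 87619 bases away. Among 1738 mature entries, 1 has this sequence and 1 has this seed, so no other listed mouse miRNA shares its seed. miR-16-5p differs in both respects, since its sequence arises from Mir16-1 on chromosome 14 and from Mir16-2 on chromosome 3, and 10 mature names carry its seed. Both sequences are 22 bases long with 10 G or C bases (45.5%), against a median of 52.2% over 1674 distinct mature sequences.

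The shortest read the authors kept had 15 bases. None of the 8 windows of that length in miR-22-3p occurred in another hairpin of the table. In 141767 GENCODE transcripts, the complete sequence was found in Mir22, in Mir22hg and in the gene Tlcd2. A window was found in 1 further gene, Gm42913. Transcripts were searched by sequence alone, so one that overlaps the Mir22 locus was not told apart from a further genomic copy. The genome itself was not searched. How reads with several genomic positions were treated is not given in the sources used here. Counts of MIMAT0000531 need not be divided among miRNA hairpins, while those of miR-16-5p cannot be assigned to one of its 2 hairpins. No count is given for miR-22-5p, the other strand of the hairpin, because the sources used here do not pair its name with an accession.

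Control libraries held 205185 to 330676 miRNA counts, beads libraries 1822088 to 1995956 and RNase H libraries 1199 to 2040. The smallest share set as detectable, 3 counts, was at most 0.00146% of the miRNA counts in control and beads libraries and between 0.147% and 0.25% in RNase H libraries, so miR-22-3p lay far above it everywhere. Intervals and floors in this text cover counting error only, as reads carry no molecular identifiers.

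In control libraries, miR-22-3p had 21478 counts in pool A, 36737 in pool B and 27719 in pool C. These were 10.5% (Wilson 95% confidence interval 10.3% to 10.6%), 11.1% (11.003% to 11.2%) and 11.1% (11.02% to 11.3%) of the miRNA counts. Pools B and C could not be told apart by counting error, and pool A was lower than both. The mean share was 10.9% ± 0.382 (SD, n = 3).

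In beads libraries, the counts were 217063 in pool A, 226929 in pool B and 210705 in pool C. The shares were 11.3% (11.2% to 11.3%), 11.4% (11.3% to 11.4%) and 11.6% (11.5% to 11.6%), with a mean of 11.4% ± 0.151 (SD, n = 3). All 3 beads libraries lay above all 3 control libraries. The same held for 22.8% of the 307 miRNAs that passed the filter on low counts, so this separation was common among miRNAs.

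In RNase H libraries, miR-22-3p had 180 counts in pool A, 258 in pool B and 133 in pool C. The shares were 8.82% (7.67% to 10.1%), 13.1% (11.6% to 14.6%) and 11.1% (9.44% to 13.0%). Pool A lay below and pool B above every control library, and the mean of 10.99% ± 2.12 (SD, n = 3) was close to that of the controls. The library of pool A had the lowest share in each of the 3 groups.

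**Figure D1:**
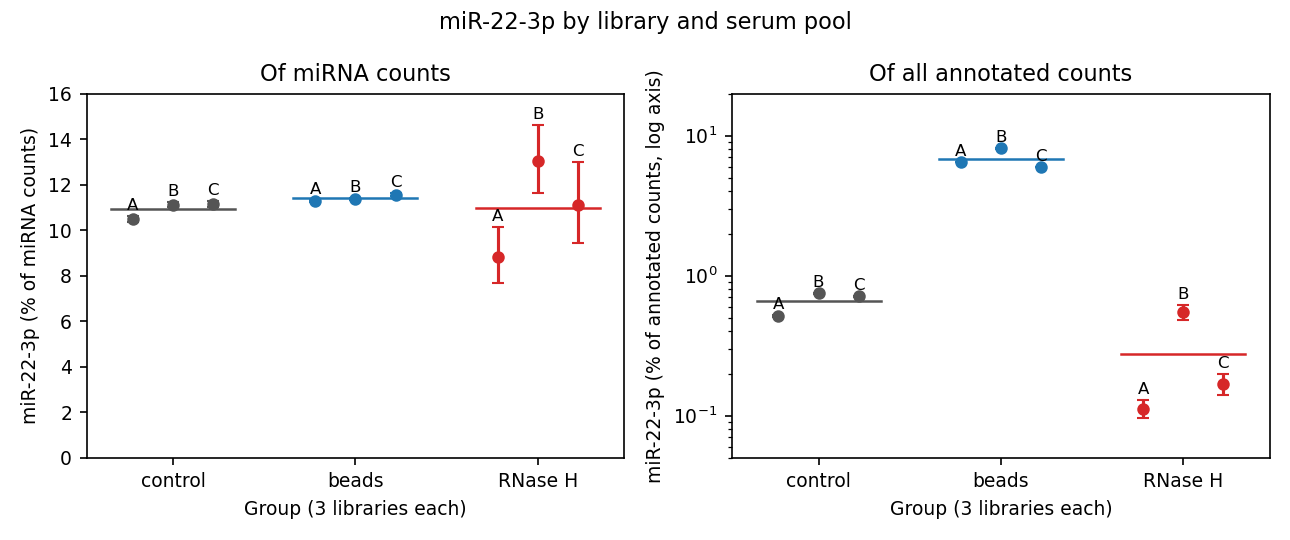
miR-22-3p in each library, by serum pool (letters), as percent of miRNA counts (left, linear axis) and as percent of all annotated counts (right, log axis); error bars are Wilson 95% intervals and horizontal lines are group means. The group means on the left lie between 10.9% and 11.4%, while on the right they range from 0.275% in RNase H to 6.85% in beads libraries.

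The share of miRNA counts leaves out the other RNA classes, and the share of all annotated counts (miRNA plus tRNA, rRNA, piRNA, snRNA and snoRNA) differed far more between groups. In control libraries miR-22-3p made up 0.657% ± 0.124 (SD, n = 3) of these counts. The values were 0.515% in pool A, 0.747% in pool B and 0.71% in pool C. In beads libraries the share was 6.85% ± 1.13 (SD, n = 3), with 6.48%, 8.11% and 5.96% in A, B and C. In RNase H libraries it was 0.275% ± 0.236 (SD, n = 3), with 0.112%, 0.546% and 0.168%. Beads libraries were all above control libraries, and of the RNase H libraries pool B overlapped the control range. The rise with beads was not particular to miR-22-3p. With this denominator 332 of 332 miRNAs tested were raised (edgeR adjusted p below 0.05). Their median log2 fold change was 3.37, against 3.38 for miR-22-3p. Put as depth, 1 count of miR-22-3p was obtained per 156 ± 32.9 annotated counts in control, per 14.8 ± 2.29 in beads and per 557 ± 356 in RNase H libraries (SD, n = 3). The number of tRNA counts per count of miR-22-3p was 147 ± 32.5 in control, 5.78 ± 2.3 in beads and 149 ± 120.2 in RNase H libraries.

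Within a serum pool, miR-22-3p can be followed from the control to the depleted fraction. Its count in beads was 10.1 times the control count in pool A, 6.18 times in pool B and 7.60 times in pool C. The miRNA total rose by nearly the same factors, 9.39, 6.04 and 7.33. The ratio of the shares was accordingly 1.08, 1.02 and 1.04, with a mean of 1.05 ± 0.0274 (SD, n = 3), and was above 1 in 3 of 3 pools. In RNase H libraries the count was 0.00838, 0.00702 and 0.00480 times that of the control in A, B and C. The ratio of the shares was 0.843, 1.17 and 0.995, with a mean of 1.00 ± 0.166 (SD, n = 3). It was below 1 in pool A, above 1 in pool B and within counting error of 1 in pool C.

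**Figure D2:**
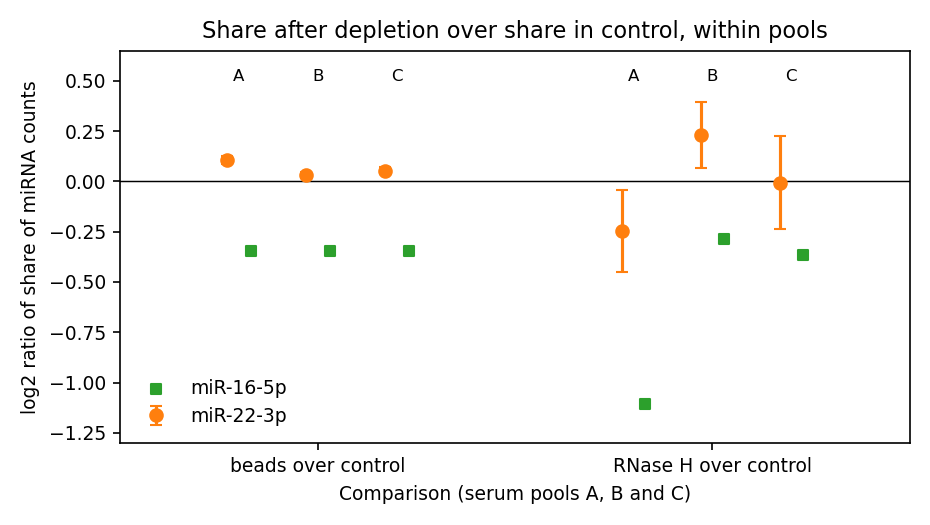
Log2 ratio of the share of miRNA counts after depletion to that in the control of the same pool, for miR-22-3p (circles, with 95% counting intervals) and miR-16-5p (squares, drawn without intervals). With beads, miR-22-3p lies between 0.03 and 0.11 in the 3 pools and miR-16-5p lies below 0 in all of them; with RNase H, miR-22-3p spreads from -0.25 to 0.23.

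The share of each miRNA was also fitted across all miRNAs with edgeR, with TMM scaling. For beads against control, the log2 fold change of miR-22-3p was 0.07 ± 0.051 SE, and 40 of the 307 miRNAs tested had a smaller absolute fold change. The median absolute log2 fold change was 0.30. Rare miRNAs carry larger SEs, so this order does not compare miR-22-3p with miRNAs of like abundance. Among miRNAs with a mean share of at least 1%, MIMAT0000652 (-0.04), MIMAT0000648 (-0.05) and MIMAT0000221 (-0.06) had smaller changes. MIMAT0000539 (0.10), MIMAT0000248 (0.29) and MIMAT0001632 (0.41) had larger ones. How many of these abundant miRNAs lay on either side was not counted. In this comparison 82 miRNAs, 26.7% of those tested, had an edgeR adjusted p below 0.05. For RNase H against control, the log2 fold change of miR-22-3p was -0.09 ± 0.19 SE, and 7 of the 138 miRNAs tested had a smaller absolute fold change, against a median of 0.62. Rare miRNAs reached large values here, such as -8.49 ± 4.62 SE for MIMAT0000153, so this order and median partly reflect low counts. In the RNase H comparison 16 miRNAs, 11.6%, passed. The sign of the RNase H value depended on the scaling, since the ratio of the mean shares was 0.01 on the log2 scale and DESeq2 size factors gave 0.10. Both comparisons use the same 3 control libraries.

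By mean share, miR-22-3p ranked 3 in the control group, 2 in the beads group and 1 in the RNase H group. In single libraries its rank was 3, 2 and 2 in control pools A, B and C, 2, 2 and 1 in beads, and 2, 1 and 1 in RNase H. The 10 most abundant miRNAs of a library took 64.2% to 67.6% of the miRNA counts, so miR-22-3p stood among a small number of dominant species.

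In control libraries, only miR-16-5p (MIMAT0000527) was clearly ahead, at 13.6% ± 0.166 (SD, n = 3) and above miR-22-3p in 3 of 3 libraries. MIMAT0000539 was at 10.9% ± 0.122 and above miR-22-3p in 1 of 3, so these neighbours did not differ beyond their spread. The next miRNAs were well below, with MIMAT0001632 at 6.97% ± 0.0176, MIMAT0000652 at 5.36% ± 0.319 and MIMAT0000221 at 5.32% ± 0.243. In beads libraries MIMAT0000539 came first, at 11.7% ± 0.481 and above miR-22-3p in 2 of 3 libraries, which again is within their spread. miR-16-5p followed miR-22-3p at 10.7% ± 0.143 and was below it in 3 of 3 libraries. MIMAT0001632 was at 9.22% ± 0.496 and MIMAT0000652 at 5.21% ± 0.179.

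In RNase H libraries the miRNAs next to miR-22-3p were MIMAT0000248 at 9.79% ± 5.43, miR-16-5p at 9.36% ± 2.62 and MIMAT0000539 at 8.91% ± 1.25 (SD, n = 3). Their ranges over libraries all overlapped that of miR-22-3p. Within libraries, MIMAT0000248 exceeded miR-22-3p in 1 of 3, pool A, with 320 against 180 counts, while miR-16-5p and MIMAT0000539 were above it in 0 of 3. The nearest miRNA below it was miR-16-5p in pools B and C, with 223 against 258 and 125 against 133 counts.

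**Figure D3:**
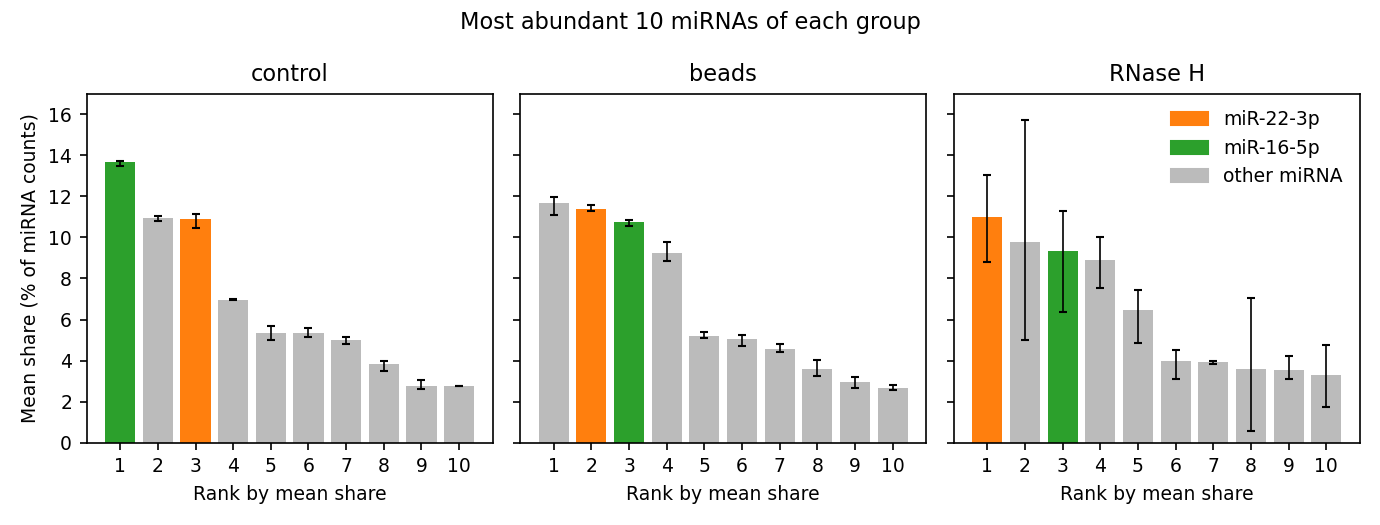
Mean share of miRNA counts of the 10 most abundant miRNAs in each group, ordered by rank; bars start at 0 and error bars run from the lowest to the highest of 3 libraries. miR-22-3p has rank 3 in control, rank 2 in beads and rank 1 in RNase H, at mean shares of 10.9%, 11.4% and 10.99%.

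As a candidate reference, miR-22-3p was judged by its coefficient of variation, the SD divided by the mean of its share of miRNA counts. Within groups this was 3.498% in control, 1.32% in beads and 19.2% in RNase H libraries. Counting error alone would give 0.605%, 0.214% and 7.52%, so the spread exceeded it in every group.

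Over the 6 control and beads libraries the coefficient of variation was 3.36%, and the highest share was 1.105 times the lowest. This was the 4th lowest value among 170 miRNAs with at least 10 counts in each library, whose median was 14.8%. Rare miRNAs are at a disadvantage in such a ranking, since the median counting error of the 170 was 6.999%. Among the 18 miRNAs with a mean share of at least 1%, whose median was only 5.61%, miR-22-3p was the 2nd lowest. The lower places in the full ranking were held by MIMAT0004750, MIMAT0000530 and MIMAT0000145, at mean shares of 0.259%, 1.15% and 0.552%. The value of MIMAT0004750, 2.58%, was below its counting error of 2.92%.

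Over all 9 libraries the coefficient of variation was 9.92%, of which counting error alone would give 4.36%, and the highest share was 1.48 times the lowest. It was the 3rd lowest of 20 miRNAs with at least 10 counts in every library, after MIMAT0000128 at 8.51% and MIMAT0000530 at 9.17%. Both of those were within their own counting error of 8.74% and 12.6%. The ranks changed with the scale: with all annotated counts as denominator, miR-22-3p was 83rd of 170 and 11th of 20. By pairwise variation, the mean SD of its log2 ratio to every other ranked miRNA, it was 10th of 170 at 0.29 and 5th of 20 at 0.33. Among the 18 miRNAs with a mean share of at least 1% over 6 libraries, it was 6th by pairwise variation. That measure was chosen after the data had been seen, in place of a planned one over the list of reference miRNAs.

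**Figure D4:**
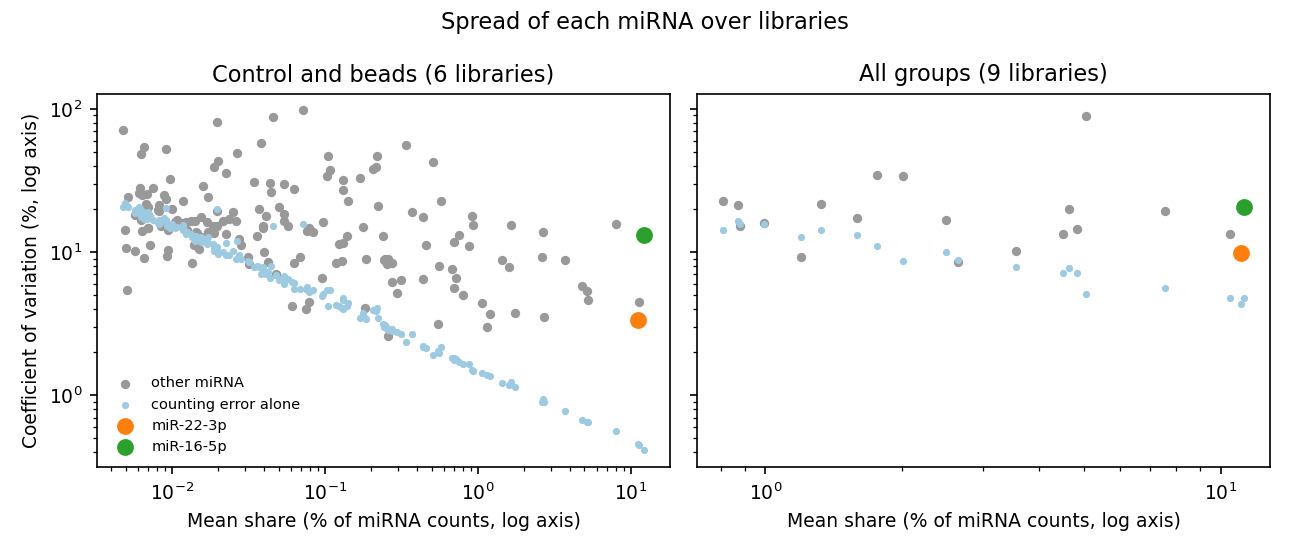
Coefficient of variation of the share of miRNA counts against its mean, on log axes, for miRNAs with at least 10 counts in each library, with the value expected from counting alone in light blue. miR-22-3p is at 3.36% over 6 libraries (4th lowest of 170) and 9.92% over 9 libraries (3rd lowest of 20); miR-16-5p is at 13.1% and 20.5%.

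miR-16-5p belonged to a list of 37 miRNA names in common use as serum references and to the list of red blood cell miRNAs, and it was the one name of these lists that the sources pair with an accession. It is abundant in red blood cells. Its coefficient of variation was 13.1% over 6 libraries, 68th of 170, and 20.5% over 9 libraries, 14th of 20. In control libraries it made up 13.7% of miRNA counts in pool A, 13.7% in pool B and 13.5% in pool C. In beads libraries it made up 10.8%, 10.8% and 10.6%, below every control library. How many other miRNAs lay below every control library was not counted. Relative to its control of the same pool, the share of miR-16-5p was 0.788, 0.788 and 0.786. In the edgeR fit for beads, 31 of 307 miRNAs were called lowered, and 168 had a smaller absolute log2 fold change than miR-16-5p. The log2 fold change of miR-16-5p was -0.34 ± 0.051 SE (edgeR adjusted p = 5.51e-10). The adjusted p lay between 2.66e-11 and 0.00627 over the alternatives, apart from the use of all annotated counts as library size, which turned the direction. In RNase H libraries its shares were 6.37%, 11.3% and 10.4%, and the log2 fold change of -0.65 ± 0.21 SE did not pass (edgeR adjusted p = 0.0575, and from 0.000171 to 0.437 over the alternatives). Relative to its control of the same pool, the RNase H share was 0.464, 0.821 and 0.775, below 1 in 3 of 3 pools. The log2 fold change was negative under all 14 alternatives and passed under 7 of them, namely DESeq2, all libraries in one fit, no filter on low counts, all annotated counts as library size, scaling to miR-22-3p, and leaving out the RNase H library of pool A or of pool B.

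The log2 ratio of miR-22-3p to miR-16-5p counts needs no library total. In control libraries it was -0.39 in pool A, -0.31 in pool B and -0.27 in pool C. In beads libraries it was 0.06, 0.07 and 0.13, and in RNase H libraries 0.47, 0.21 and 0.09. The groups did not overlap between control and either depletion protocol, and by the mean ratio the order of the pair turned from miR-16-5p to miR-22-3p. The means were -0.32 ± 0.062, 0.09 ± 0.038 and 0.26 ± 0.19 (SD, n = 3). The RNase H values carry counting errors of 0.13 to 0.18, and in pools B and C the ratio differed from the beads mean by less than that error. In pool C the turned order was itself within counting error, at 0.09 with an error of 0.18. In pool B the ratio was 0.21 with an error of 0.13. Since miR-22-3p was chosen on its evenness across groups, the turn largely restates the lower share of miR-16-5p. How many other miRNAs separate from miR-16-5p in this way was not counted.

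The number of other miRNAs called raised or lowered depends on the scale, and scaling to 1 miRNA was also tried after the data had been seen. Such scaling shifts every fold change by about that of the reference, so the values below largely restate the fold changes of miR-22-3p and miR-16-5p given above and say nothing further about either as a reference. For beads against control, TMM gave 51 raised and 31 lowered (edgeR adjusted p below 0.05), scaling to miR-22-3p 48 and 44, and scaling to miR-16-5p 126 and 15. The median log2 fold changes were 0.04, -0.02 and 0.38. For RNase H against control, TMM gave 9 raised and 7 lowered, scaling to miR-22-3p 9 and 6, and scaling to miR-16-5p 15 and 1. The medians were -0.19, -0.08 and 0.50. With all annotated counts as library size, 332 of 332 miRNAs were raised with beads, and with RNase H 4 were raised and 47 lowered. DESeq2 gave 46 raised and 37 lowered with beads, and 14 raised and 7 lowered with RNase H.

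The miRNAs whose profile was most like that of miR-22-3p were taken as those with the lowest SD of the log2 ratio to it. Over the 6 control and beads libraries these were MIMAT0016988 and MIMAT0000145, each with an SD of 0.04, then MIMAT0000539 (0.06), MIMAT0004869 (0.07) and MIMAT0003782 (0.07), against a median of 0.22 over 169 miRNAs. MIMAT0000539 was the only one of similar abundance, with a log2 ratio between -0.06 and 0.08 in the 6 libraries. The other 4 had mean shares of 0.0611% to 0.552%. For MIMAT0016988 and MIMAT0004869, counting error alone would give 6.15% and 5.50%, above their coefficients of variation of 4.22% and 4.02%. Their places are therefore not resolved from counting error. For MIMAT0000145, MIMAT0000539 and MIMAT0003782 the coefficient of variation was above the counting error. miR-16-5p was 92nd, at 0.23.

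Over all 9 libraries the closest were MIMAT0000533 at an SD of 0.11, MIMAT0000530 at 0.14, MIMAT0000539 at 0.17, MIMAT0000208 at 0.17 and MIMAT0001632 at 0.22, against a median of 0.28 over 19 miRNAs. MIMAT0000539 was among the closest 5 in both sets, but the 6 libraries are part of the 9. It was the only one of the closest 5 over 6 libraries with at least 10 counts in all 9, so no other could recur. For MIMAT0000533 and MIMAT0000530, counting error alone would give 15.6% and 12.6% over the 9 libraries. Their coefficients of variation, 15.1% and 9.17%, were below that, so their first places are not resolved from counting error. For MIMAT0000539, MIMAT0000208 and MIMAT0001632 the coefficient of variation was above the counting error. All these SDs share the libraries and the counting error of miR-22-3p itself and describe only these samples.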

How the data were processed

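Small RNA of serum was sequenced in 9 libraries, 3 per group, with 2 count files per library. The authors trimmed adapters with cutadapt 1.8.1, dropped reads under 15 bases or of low quality, mapped the rest to GRCm38 with Bowtie 1.1.2 without mismatches and annotated them by position (miRBase, UCSC and Ensembl). The deposited values are raw counts, per mature miRNA in one file and per distinct read sequence of the other classes in the other. Reads with untemplated ends or errors are lost by exact matching, and isoforms of miR-22-3p are not separated here.

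Counts of MIMAT0000531 were divided by the sum of miRNA counts. miRNAs were fitted with edgeR 4.0.16 in R 4.3.3 (filterByExpr, TMM, quasi-likelihood test, Benjamini-Hochberg adjustment, 2 groups per fit), with DESeq2 1.42.0 as an alternative. The fit and the ranking were tested on simulated data. SEs of fold changes were derived from the fold change and its F statistic. Intervals are from SciPy 1.17.1 in Python 3.11.15. Replicates of a group did not agree within sampling noise (chi-square per degree of freedom of at least 1.37).

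miR-22-3p, the lists and the rules for named miRNAs (up to 3 neighbours in abundance on each side, 5 closest profiles) were chosen with earlier results of these data known. Of 37 candidate reference names, 1 could be matched to an accession. The remaining names, the other tissue markers and miR-22-5p, for which tests had been planned, are not analysed here. The labels name a serum pool for each library, by which libraries can be paired, though the pools may be aliquots of the same serum. The main fits did not use this pairing. Deviations from the group means correlated by 0.26, 0.18 and -0.25 between beads and control in pools A, B and C. Between RNase H and control they correlated by 0.29, 0.21 and 0.20.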

Additional observations from a re-analysis of the deposited data

How the results depend on the processing

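The log2 ratio of miR-22-3p shares, beads over control, stayed between 0.02 and 0.08 under 10 alternatives, and with all annotated counts as denominator it was 3.38. For RNase H over control the value of 0.01 turned to -0.00705 with a replicate block for serum pool, to -0.0802 with TMM, and to -1.26 with all annotated counts. Leaving out 1 library gave -0.131 (without RNase H pool B) to 0.146 (without RNase H pool A), and -0.0181 without control pool A, so no direction can be given.

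The stability rank of 4 over 6 libraries became 7 with TMM, 7 with the replicate block, 10 by pairwise variation, 83 with all annotated counts, and 2 (without control pool A) to 9 (without beads pool B) when 1 library was left out (8 without beads pool A, 7 without control pool C). The rank of 3 over 9 libraries became 1 with DESeq2 size factors, 1 of 6 with at least 50 counts, 5 by pairwise variation and 11 with all annotated counts.

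The number of edgeR calls for beads was 82, 91 with the replicate block, 141 with miR-16-5p as reference and 332 with all annotated counts. For RNase H it was 16, 12 with the replicate block, 51 with all annotated counts and 4 to 14 with 1 library left out. It was 9 without RNase H pool C. Without control pool A, B or C it was 6, 4 and 4, with only 34, 33 and 33 miRNAs tested. The block changed no other call named here. With all annotated counts the log2 fold change of miR-16-5p with beads was 2.98. The cause of these shifts was not tested. RNase H depth limits miR-22-3p to a counting error of 6.23% to 8.67% per library. The planned values for miR-22-5p and the candidate list were not run.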
